A study of Mus musculus with 12 samples.

Results

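Toll-like receptors are membrane proteins that recognise conserved microbial molecules, and the 10 genes described here encode 5 of these receptors with the co-receptors and adaptors through which they act. The genes were Tlr1, Tlr2, Tlr3, Tlr4, Tlr6, Cd14, Ly96, Myd88, Ticam1 and Ticam2, taken by name from the 51707 genes to which the deposited transcripts were joined. All 10 were found. Of these, 9 passed the filter on low counts and were tested among 14711 genes, and Ticam2 did not pass. Of those tested, 8 had at least 10 reads in all 12 libraries. Tlr6 reached 10 reads in every library of a group only in the undifferentiated controls.

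RNA was sequenced from mouse cells labelled MLO-Y4, an osteocyte-like line of genotype WT, on a rat collagen coating of 0.15 mg/mL. The groups were differentiated cells given BIGH3, differentiated controls, undifferentiated cells given BIGH3 and undifferentiated controls, with 3 libraries in each of the 4 groups. BIGH3 is the matrix protein encoded by TGFBI, added here as recombinant human protein, and the series set out to learn what it does to Gja1, a gap junction gene, in osteocytes. Differentiation medium held ascorbic acid at 50 µg/mL, β-glycerophosphate at 4 mM and 10% serum, and the labels give no medium for the undifferentiated cells, so that state and medium cannot be told apart. No source used here gives the dose, the time, what controls received, the host in which the protein was made or its endotoxin content. Nothing ties the libraries to separate cultures, so p-values measure only the spread between libraries, which may be technical. MLO-Y4 is 1 clonal line.

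Libraries held 19014492 to 27612155 estimated reads. Of 7 osteocyte markers, Sost had reads only in differentiated controls and Fgf23 had none in any group, while 4 of the 7 stood at a mean of at least 1 TPM in every group. TPM is a level corrected for transcript length and library depth. The names of the deposited data begin with MC3, which no label uses, and which line this is was not tested. Undifferentiated control 2, differentiated BIGH3 3, differentiated control 2 and, at a lower level, undifferentiated BIGH3 1 carried transcripts from a list of 8 liver markers. They are called liver transcripts below, but their source was not tested. In undifferentiated control 2, Afp had 1549 reads and Alb only 9, and Serpina1a had no read in any group. Summed TPM of the 8 markers reached 91.2 in undifferentiated controls and 18.5 in undifferentiated BIGH3 cells. It reached 40.3 in differentiated BIGH3 cells and 31.3 in differentiated controls. Of 12 macrophage markers, which matter here because macrophages carry the same receptors, Tyrobp had no read in any group and Ptprc had 24, 31, 17 and 20 reads over the differentiated BIGH3, differentiated control, undifferentiated BIGH3 and undifferentiated control libraries. Summed macrophage TPM was 42.0 to 48.8 in differentiated BIGH3 cells and 46.5 to 53.8 in differentiated controls. In undifferentiated cells it was 28.3 to 32.3 with BIGH3 and 32.4 to 35.5 in controls. Most of each sum was Lyz2, a lysozyme gene, which averaged 40.8 TPM in differentiated BIGH3 cells, 48.9 in differentiated controls, 29.3 in undifferentiated BIGH3 cells and 32.1 in undifferentiated controls. Of the 4 macrophage markers tested in differentiated cells, Fcer1g, an Fc receptor chain, rose with BIGH3 (86 reads over the differentiated BIGH3 libraries and 10 over the differentiated controls, log2 fold change 3.26 ± 0.66, adjusted p = 0.000388 by edgeR), Lyz2 fell by 0.28 (adjusted p = 0.00253) and 2 were not called. Of 6 neutrophil markers the summed TPM was 5.38 to 8.33 in differentiated BIGH3 cells and 1.85 to 2.59 in differentiated controls, with Csf3r and Ly6g at 0 in both, and S100a8 alone was tested and rose. With BIGH3 in differentiated cells 22.6% of all genes tested rose and 22.9% fell. Of the 4 osteocyte markers tested there, 3 rose and 1, Phex, fell (median log2 fold change 0.68). Of 8 osteoblast markers 7 fell and 1 rose with BIGH3 in differentiated cells (median log2 fold change -0.80). The one that rose, Spp1, averaged 10350 TPM in differentiated BIGH3 cells and 3092 TPM in differentiated controls and made up most of the list's summed level. Their part in the results below was not tested. In bulk RNA, fewer cells of a type and less RNA per cell cannot be told apart.

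As background, TLR4 senses lipopolysaccharide, the endotoxin of Gram-negative bacteria, with the help of CD14, which hands lipopolysaccharide over, and of MD-2, the product of Ly96, which binds it inside the TLR4 complex. TLR2 pairs with TLR1 or TLR6 to sense bacterial lipopeptides, and TLR3 senses double-stranded RNA in endosomes. MyD88 is the adaptor of all these receptors except TLR3 and leads to NF-kB, whereas TRIF, the product of Ticam1, serves TLR3 and, through the bridging adaptor TRAM encoded by Ticam2, TLR4, and leads also to interferon regulatory factors. Cells of the osteoblast lineage are known to express several of these receptors.

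In differentiated cells genes of the endotoxin receptor and of a lipopeptide receptor were higher with BIGH3. Cd14, Tlr2, Tlr1, Tlr4, Ly96 and Myd88 rose, by 3.82-fold for Cd14 to 1.28-fold for Myd88, and Ticam1 fell, by 0.23 on the log2 scale. Tlr3 and Tlr6 were not called. In undifferentiated cells no member was called. A gene was called at an adjusted p below 0.05 by edgeR's quasi-likelihood test with Benjamini-Hochberg adjustment over all 14711 genes, and every adjusted p below comes from that test.

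So in differentiated cells 6 of 9 members tested rose and 1 fell, where 45.5% of all genes tested were called, 22.6% higher and 22.9% lower. The median log2 fold change of the 9 was 0.98, against -0.01 for all genes. With so many genes called, the number of members called says little by itself. It was 7 under all 22 alternative settings, also without the libraries that carry liver transcripts.

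The 300 bases around the start site, 250 before and 50 after, are shown for 3 members that differ in their response to BIGH3. They come from a RefSeq table on GRCm38.p6, of which windows of 6 of the 10 members (Tlr1, Tlr2, Tlr3, Tlr6, Myd88 and Ticam1) were used. Windows of Cd14 and Ticam2 were not examined, and the table gave none for Tlr4 or Ly96. Capitals mark matches, on either strand, to the 10-base NF-kB consensus GGGRNNYYCC or to the interferon-stimulated response element (GAAA and GAAA with any 2 bases between them). In these letters R is either purine, Y is either pyrimidine and N is any base. An AP-1 motif (TGANTCA) was searched as well. Tlr2 rose 3.47-fold in differentiated cells, Myd88 rose 1.28-fold and Tlr3 was not called. The windows are chr3:83841559-83841858, chr9:119339969-119340268 and chr8:45410331-45410630, all on the minus strand.
Tlr2: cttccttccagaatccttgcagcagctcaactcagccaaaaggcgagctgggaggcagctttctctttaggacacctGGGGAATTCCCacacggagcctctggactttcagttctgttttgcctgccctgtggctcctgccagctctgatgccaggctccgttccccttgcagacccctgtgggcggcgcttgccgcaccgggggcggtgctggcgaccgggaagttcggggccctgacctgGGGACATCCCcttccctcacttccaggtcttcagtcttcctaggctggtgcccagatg
Myd88: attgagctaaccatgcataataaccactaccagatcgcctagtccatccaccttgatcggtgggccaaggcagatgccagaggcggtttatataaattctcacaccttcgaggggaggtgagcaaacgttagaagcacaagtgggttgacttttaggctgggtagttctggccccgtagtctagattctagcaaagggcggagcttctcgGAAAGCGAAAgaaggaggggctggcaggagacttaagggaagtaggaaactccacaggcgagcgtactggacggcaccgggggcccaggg
Tlr3: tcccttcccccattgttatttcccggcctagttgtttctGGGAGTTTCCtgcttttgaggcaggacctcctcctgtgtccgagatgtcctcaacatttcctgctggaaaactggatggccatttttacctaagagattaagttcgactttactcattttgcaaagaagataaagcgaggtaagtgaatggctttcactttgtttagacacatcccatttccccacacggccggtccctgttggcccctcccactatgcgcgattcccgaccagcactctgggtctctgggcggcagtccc

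The Tlr2 window held 3 matches to the NF-kB consensus in 2 stretches, counted once per position. A pair overlapped at -173 and -172 from the start, and 1 lay nearer the start. The match at -172 and the one nearer the start read as matches on both strands. The Myd88 window held 1 match to the interferon element, its first base at -40, and the Tlr3 window held 1 match to the NF-kB consensus, its first base at -211. Among the 32851 promoter windows of the table, 8.46% held the NF-kB consensus, 3.44% the interferon element and 7.81% the AP-1 motif. With the narrower form of GGGA and TTCC parted by any 2 bases, held by 1.47% of windows, the match in Tlr3 remained and those in Tlr2 did not. The wider form was chosen after the sequences were seen. Windows of Ticam1 and both of Tlr1 held none of the motifs (0), and 1 of the 2 of Tlr6 held 2 overlapping interferon elements. A match is a description of these letters and not a site.

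**Figure D1:**
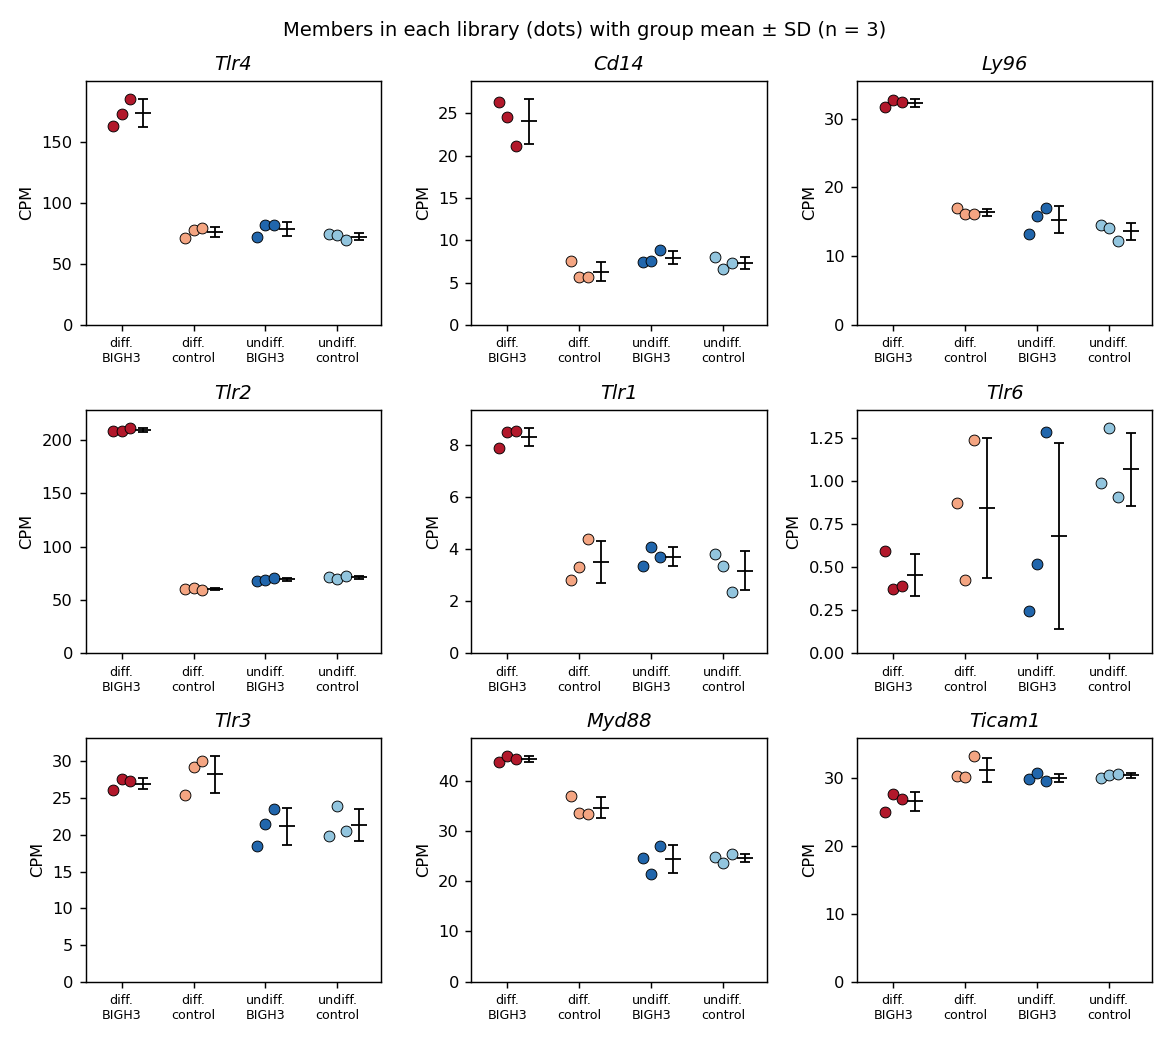
Level of each tested member in CPM (reads scaled to library size, linear axes from 0) in all 12 libraries; dots are libraries, and black bars give the group mean ± SD (n = 3). Differentiated BIGH3 libraries lie above all others for Tlr4, Cd14, Ly96, Tlr2, Tlr1 and Myd88, and below all others for Ticam1.

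Tlr4 (ENSMUSG00000039005.13, GRCm38 chr4:66827584-66930284, plus strand) encodes the receptor chain for endotoxin. It stood at 163, 173 and 185 CPM in differentiated BIGH3 libraries, against 71.0, 77.8 and 79.4 CPM in differentiated controls. The lowest treated library had more than 2 times the highest control, and the groups did not overlap. The rise was 2.28-fold, a log2 fold change of 1.19 ± 0.06 (SE, adjusted p = 1.1e-12). In undifferentiated cells Tlr4 had 72.2, 81.8 and 82.0 CPM with BIGH3 and 74.3, 73.7 and 69.1 CPM in controls. Those groups overlapped, and the log2 fold change of 0.12 ± 0.06 was not called (adjusted p = 1). The main protein-coding transcript carried 98.0% to 99.5% of the Tlr4 reads of a library.

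Cd14 (ENSMUSG00000051439.7, GRCm38 chr18:36725067-36726798) encodes the co-receptor that presents lipopolysaccharide. It stood at 26.4, 24.6 and 21.2 CPM in differentiated BIGH3 libraries, against 7.57, 5.66 and 5.63 CPM in differentiated controls. The treated libraries were all high, and the lowest of them, number 3, is one with liver transcripts. The log2 fold change of 1.93 ± 0.13 was the largest among the members tested (3.82-fold, adjusted p = 5.87e-11). In undifferentiated cells Cd14 had 7.45, 7.58 and 8.83 CPM with BIGH3 and 8.02, 6.62 and 7.29 CPM in controls, overlapping levels with a log2 fold change of 0.12 ± 0.13 (adjusted p = 1).

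Ly96 (ENSMUSG00000025779.10, GRCm38 chr1:16688051-16709611) encodes MD-2. It stood at 31.7, 32.8 and 32.5 CPM in differentiated BIGH3 libraries, against 17.0, 16.1 and 16.2 CPM in differentiated controls. The 2 groups were narrow and far apart, with a 1.97-fold rise and a log2 fold change of 0.98 ± 0.09 (adjusted p = 1.25e-08). In undifferentiated cells Ly96 had 13.2, 15.8 and 17.0 CPM with BIGH3 and 14.6, 14.1 and 12.2 CPM in controls. That log2 fold change, 0.17 ± 0.09, was not called (adjusted p = 1).

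Tlr2 (ENSMUSG00000027995.10, GRCm38 chr3:83836272-83841767) encodes the shared chain of the lipopeptide receptors. It was the most evenly measured member, at 209, 209 and 212 CPM in differentiated BIGH3 libraries against 60.3, 61.6 and 59.4 CPM in differentiated controls. No treated library came near a control, and the 3.47-fold rise was a log2 fold change of 1.80 ± 0.04 (adjusted p = 1.11e-17). In undifferentiated cells Tlr2 had 68.3, 68.8 and 70.7 CPM with BIGH3 and 71.8, 69.5 and 72.6 CPM in controls, a log2 fold change of -0.04 ± 0.04 (adjusted p = 1). All of its reads were assigned to 1 protein-coding transcript.

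Tlr1 (ENSMUSG00000044827.10, GRCm38 chr5:64924679-64933563), a partner chain of TLR2, was expressed at a far lower level. It stood at 7.89, 8.50 and 8.51 CPM in differentiated BIGH3 libraries, against 2.81, 3.30 and 4.39 CPM in differentiated controls. The groups did not overlap, and the 2.37-fold rise was a log2 fold change of 1.25 ± 0.19 (adjusted p = 1.32e-05). In undifferentiated cells it had 3.36, 4.07 and 3.69 CPM with BIGH3 and 3.80, 3.35 and 2.34 CPM in controls (log2 fold change 0.24 ± 0.19, adjusted p = 1).

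Tlr6 (ENSMUSG00000051498.6, GRCm38 chr5:64952031-64960097), the other partner chain, lies 18467 bases from Tlr1. It was close to the limit of detection, with 13, 7 and 7 reads in differentiated BIGH3 libraries and 21, 9 and 27 reads in differentiated controls. Undifferentiated cells had 6, 11 and 31 reads with BIGH3 and 21, 32 and 26 reads in controls. The log2 fold changes with BIGH3, -0.88 ± 0.53 in differentiated and -0.64 ± 0.49 in undifferentiated cells, were not called (adjusted p = 0.188 and 1), and at this depth a change of that size was not detectable. Tlr1 and Tlr6 are close paralogs, so the division of reads between them rests on the authors' estimation and is uncertain.

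Tlr3 (ENSMUSG00000031639.12, GRCm38 chr8:45395665-45411080), the receptor for double-stranded RNA, was not called with BIGH3. It stood at 26.1, 27.5 and 27.3 CPM in differentiated BIGH3 libraries and 25.4, 29.2 and 30.1 CPM in differentiated controls. These groups overlapped, with a log2 fold change of -0.06 ± 0.09 (adjusted p = 0.598). In undifferentiated cells it had 18.5, 21.5 and 23.5 CPM with BIGH3 and 19.8, 23.9 and 20.5 CPM in controls (log2 fold change -0.02 ± 0.09, adjusted p = 1). The reads of Tlr3 were spread over several protein-coding transcripts, whose shares differed widely between libraries, so only the sum was used.

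Myd88 (ENSMUSG00000032508.8, GRCm38 chr9:119335934-119341411) is the adaptor shared by the receptors that rose. It stood at 43.7, 44.9 and 44.2 CPM in differentiated BIGH3 libraries, against 37.0, 33.6 and 33.3 CPM in differentiated controls. All treated libraries were above all controls, and the 1.28-fold rise was a log2 fold change of 0.35 ± 0.08 (adjusted p = 0.000662). In undifferentiated cells it had 24.6, 21.5 and 27.0 CPM with BIGH3 and 24.8, 23.7 and 25.4 CPM in controls (log2 fold change -0.01 ± 0.08, adjusted p = 1). Of its 2576 exonic bases, 290 are shared with Acaa1a on the opposite strand, a gene with 961 to 1380 reads per library. The strand of the libraries is not given, so reads of the shared bases cannot be told apart.

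Ticam1 (ENSMUSG00000047123.8, GRCm38 chr17:56269319-56276786), which encodes TRIF, moved the other way. It stood at 25.1, 27.7 and 27.0 CPM in differentiated BIGH3 libraries, against 30.3, 30.2 and 33.3 CPM in differentiated controls. The treated libraries were all lower, with a log2 fold change of -0.23 ± 0.07 (1.18-fold lower, adjusted p = 0.00725). In undifferentiated cells it had 29.9, 30.8 and 29.6 CPM with BIGH3 and 30.1, 30.5 and 30.7 CPM in controls (log2 fold change -0.02 ± 0.07, adjusted p = 1). Ticam2 (ENSMUSG00000056130.10, GRCm38 chr18:46557291-46574533), which encodes TRAM, had 2 reads in differentiated BIGH3 library 1 and 0 reads in the other 11 libraries. A count of 0 allows up to 3 reads over a group, or 0.0425 CPM over the differentiated controls, so no fold is given. Its exons share 838 of 5792 bases with Tmed7 on the same strand, which had 2583 to 3745 reads per library.

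In undifferentiated cells the 0 called members of 9 stood against 0.0204% of all genes called. That share was 0.0068% for higher and 0.0136% for lower genes. None reached an unadjusted p below 0.05 by edgeR (0 of 9), and DESeq2 and limma on TPM also called 0. The median log2 fold change of the 9 was -0.01, against 0.00 for all genes.

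**Figure D2:**
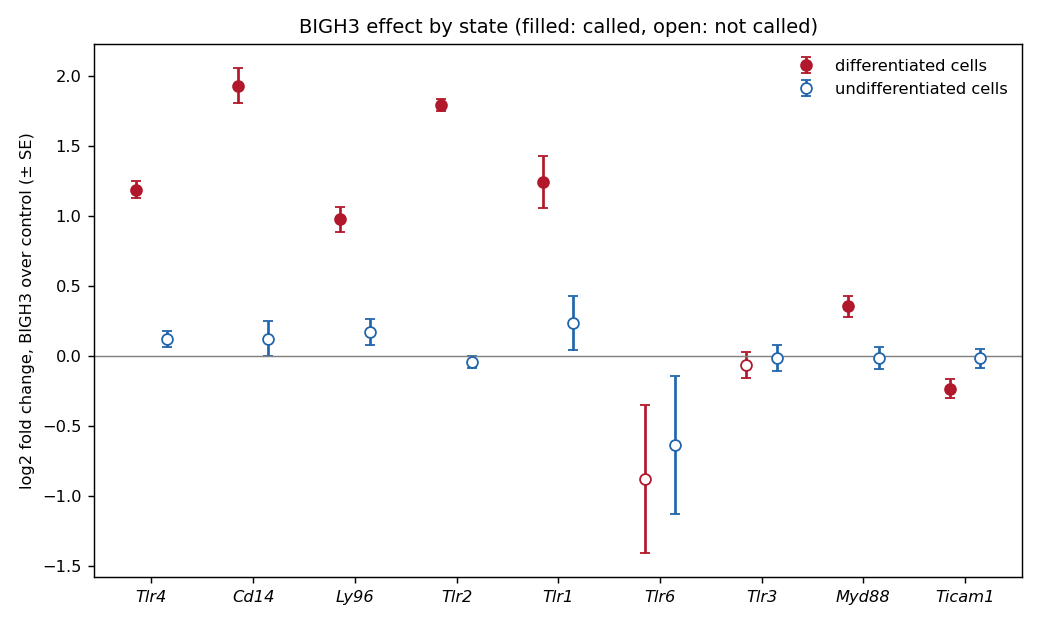
Log2 fold change of BIGH3 over control (± SE, n = 3 libraries a group) for each tested member in differentiated and undifferentiated cells; filled symbols were called at an adjusted p below 0.05. In differentiated cells 6 members lie above 0 and filled, from 0.35 for Myd88 to 1.93 for Cd14, and in undifferentiated cells all 9 symbols are open.

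The difference between the states was tested as the interaction of BIGH3 and differentiation, for which 32.2% of all genes were called, 16.2% higher and 16% lower. Here 6 of 9 members were called, and each had the larger BIGH3 effect in differentiated cells. The log2 fold change with BIGH3 was greater in differentiated than in undifferentiated cells by 1.84 ± 0.06 for Tlr2 (adjusted p = 7.89e-15), by 1.81 ± 0.18 for Cd14 (adjusted p = 9.22e-08) and by 1.07 ± 0.09 for Tlr4 (adjusted p = 3.91e-09). For Tlr1 it was greater by 1.01 ± 0.27 (adjusted p = 0.00627), for Ly96 by 0.81 ± 0.13 (adjusted p = 5.03e-05) and for Myd88 by 0.37 ± 0.11 (adjusted p = 0.013). Ticam1, with -0.22 ± 0.09, was not called (adjusted p = 0.0861), nor were Tlr3 (-0.05 ± 0.13, adjusted p = 0.809) and Tlr6 (-0.24 ± 0.72, adjusted p = 0.833). Leaving out the 3 libraries richest in liver transcripts, the differences for Tlr1 and Myd88, 0.89 ± 0.34 and 0.36 ± 0.13, were near those above but were not called with fewer libraries (adjusted p = 0.0655 and 0.0568).

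In control cells, differentiated against undifferentiated, Myd88, Tlr3 and Ly96 rose and Tlr2 fell, 4 of 9 members called where 57.7% of all genes were called, 29.1% higher and 28.6% lower. Myd88 averaged 34.6 ± 2.0 CPM in differentiated and 24.6 ± 0.87 CPM in undifferentiated controls (SD, n = 3), with a log2 fold change of 0.49 ± 0.08 (adjusted p = 1.45e-05). Tlr3 averaged 28.2 ± 2.5 CPM in differentiated and 21.4 ± 2.2 CPM in undifferentiated controls, with a log2 fold change of 0.40 ± 0.09 (adjusted p = 0.000866). Tlr2 averaged 60.4 ± 1.1 CPM in differentiated and 71.3 ± 1.6 CPM in undifferentiated controls, so it fell by 0.24 ± 0.04 on the log2 scale (adjusted p = 8.48e-05). The differentiated controls serve in this comparison and in that of BIGH3. Ly96 lay 0.27 ± 0.09 higher on the log2 scale (adjusted p = 0.0163), but was not called with scaling by library totals (adjusted p = 0.27), on protein-coding transcripts (0.107), without undifferentiated control 3 (0.104) and without differentiated control 1 (0.0604).

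The remaining members were not called between the control states. The log2 fold change was 0.07 ± 0.06 for Tlr4 (adjusted p = 0.325), -0.21 ± 0.13 for Cd14 (0.178), 0.15 ± 0.19 for Tlr1 (0.517), 0.04 ± 0.07 for Ticam1 (0.643) and -0.33 ± 0.49 for Tlr6 (0.581). In TPM the median of all genes moved to -0.28 in this comparison. Ly96 then lay at -0.02, Tlr4 at -0.26 and Ticam1 at -0.24, against that median. Directions of these 3 genes between the states therefore depend on the scale.

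In BIGH3 treated cells, differentiated against undifferentiated, 7 members rose and 1 fell of 9, where 56.6% of all genes were called, 28.9% higher and 27.7% lower. The differentiated BIGH3 libraries of this comparison are those of the BIGH3 comparison above. Tlr2 and Cd14 each rose 3.03-fold, with log2 fold changes of 1.60 ± 0.04 (adjusted p = 1.7e-17) and 1.60 ± 0.12 (adjusted p = 6.09e-10). Tlr4 rose 2.21-fold (adjusted p = 1.39e-12), Tlr1 2.24-fold (adjusted p = 1.91e-05), Ly96 2.11-fold (adjusted p = 2.09e-09), Myd88 1.82-fold (adjusted p = 6.94e-09) and Tlr3 1.27-fold (adjusted p = 0.00317). Ticam1 fell by 0.18 ± 0.07 on the log2 scale (adjusted p = 0.0294) but was not called without undifferentiated BIGH3 1 (0.0504) or 2 (0.0738) or differentiated BIGH3 1 (0.109). Tlr6 was not called, with a log2 fold change of -0.57 ± 0.54 (adjusted p = 0.38).

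Compared per length, in TPM, the members spanned levels from Ly96 at the top to Tlr6 at the bottom. Ly96 was the highest member in every group, at 96.1 ± 4.7 TPM in differentiated BIGH3 cells, 46.5 ± 2.7 in differentiated controls, 50.5 ± 5.8 in undifferentiated BIGH3 cells and 47.2 ± 3.9 in undifferentiated controls (SD, n = 3). Tlr2 followed at 86.9 ± 3.4, 24.9 ± 1.5, 33.1 ± 0.79 and 35.6 ± 1.0 TPM in the same groups, and Tlr4 at 57.4 ± 7.3, 24.7 ± 0.47, 30.4 ± 0.98 and 29.6 ± 0.11 TPM. In differentiated controls Tlr2 and Tlr4 did not differ beyond their spread. Myd88 lay at 29.3 ± 0.80, 22.6 ± 2.0, 18.5 ± 2.0 and 19.3 ± 0.66 TPM.

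Cd14 stood at another place in the order with BIGH3. Cd14 averaged 20.7 ± 1.9 TPM in differentiated BIGH3 cells, above Tlr3 at 13.9 ± 1.4 and Ticam1 at 10.9 ± 0.60. In differentiated controls Cd14, at 5.18 ± 1.1 TPM, was below Tlr3 at 13.3 ± 0.96 and Ticam1 at 12.6 ± 0.31, and those 2 did not differ beyond their spread. Tlr1 stood at 3.94 ± 0.67 TPM in differentiated BIGH3 cells and 1.59 ± 0.40 in differentiated controls, and Tlr6 at 0.388 ± 0.17 and 0.361 ± 0.26. The Tlr6 levels include a 446-base transcript with 1.4 and 1.3 reads in differentiated BIGH3 2 and 3, or 0.366 and 0.394 TPM. It had 1.3 reads in differentiated control 3, or 0.281 TPM, so the order of the 2 groups in TPM rests on very few reads. The ratio of Tlr2 to Tlr4 in TPM was 1.68, 1.51 and 1.39 in differentiated BIGH3 libraries, against 1.06, 1.03 and 0.928 in differentiated controls. The ratio of Myd88 to Ticam1, the adaptors of the 2 arms, was 2.80, 2.60 and 2.64 in differentiated BIGH3 libraries, against 1.97, 1.80 and 1.60 in differentiated controls, and neither ratio overlapped between these groups. The ratio of Ly96 to Tlr4 did overlap, at 1.79, 1.72 and 1.54 in differentiated BIGH3 libraries and 2.02, 1.88 and 1.75 in differentiated controls.

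**Figure D3:**
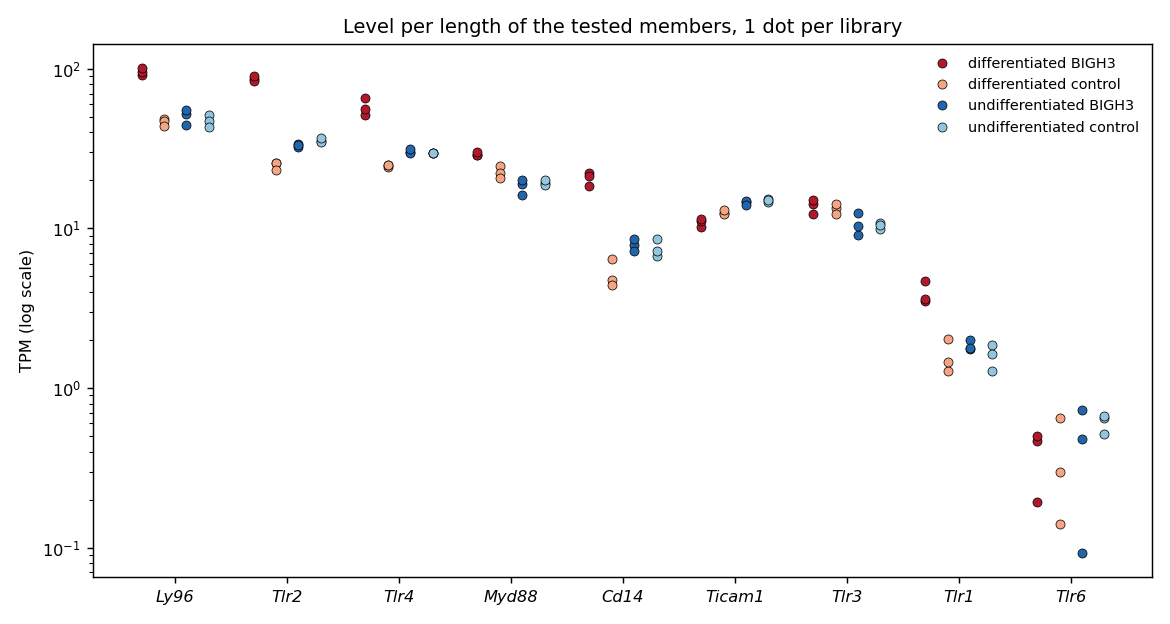
Level per length in TPM on a log axis, 1 dot per library, for the 9 tested members in the 4 groups. Ly96, Tlr2 and Tlr4 are the highest members, Cd14 lies above Ticam1 and Tlr3 in differentiated BIGH3 cells (mean 20.7 TPM), and Tlr6 lies below 1 TPM in every library.

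Across groups, differentiated BIGH3 cells had the highest mean CPM of Tlr4, Cd14, Ly96, Tlr2, Tlr1 and Myd88. For Tlr4, Cd14 and Tlr1 the other 3 groups overlapped one another. Myd88 made steps, with differentiated BIGH3 above differentiated control and both above the undifferentiated groups, which overlapped. Tlr3 stood in the order differentiated control, differentiated BIGH3, undifferentiated control, undifferentiated BIGH3, with overlap within each state. A transcript of Myd88 that keeps an intron took 0.74% to 1.12% of its reads in differentiated BIGH3 libraries and 0.24% to 1.14% in differentiated controls. In undifferentiated libraries that share was 2.79% to 5.91% with BIGH3 and 3.53% to 7.27% in controls, so the states did not overlap. These are 1.7 to 42.1 estimated reads per library.

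Genes whose pattern over the 12 libraries was most like that of Tlr2, by Pearson's correlation of log2 CPM among 10260 genes, were C3, a complement component (r = 0.998), Tgfbr3, a TGF-beta co-receptor (0.997), Ctps, of CTP synthesis (0.996), and Fas, a death receptor (0.996). Most like Tlr4 were Zfp426 (0.993), Mgst1, a glutathione transferase (0.992), Cxcl10, a chemokine (0.991), and Lifr, the receptor of leukaemia inhibitory factor (0.990). The 3 differentiated BIGH3 libraries stand apart in all of these genes in the same direction. Over the 9 other libraries the correlation was 0.904 for C3 with Tlr2 and 0.29 for Lifr with Tlr4.

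The other toll-like receptors had few reads. Of 9 further receptors and family members (Tlr5, Tlr7, Tlr8, Tlr9, Tlr11, Tlr12, Tlr13, Cd180 and Ly86) only Tlr5, the flagellin receptor, passed the filter. It had 18 reads over the differentiated BIGH3 libraries and 39 over the differentiated controls, and its log2 fold change of -0.93 ± 0.53 was not called (adjusted p = 0.164). Tlr7 had 13 and 20 reads in the same groups, Tlr9 had 1 and 13, and Tlr8 had 0 in all 4 groups. Unc93b1, which carries endosomal receptors to their compartment, had 1 and 4 reads.

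All 8 of 8 target genes of the MyD88 arm that were tested rose in differentiated BIGH3 cells against their controls (median log2 fold change 3.11). Of all genes tested, 22.6% rose, and the list was chosen with earlier results of these data known. Tnf, Il1b, Cxcl2 and Csf3 did not pass the filter. Nfkbiz, an NF-kB cofactor, averaged 83.1 ± 1.4 CPM in differentiated BIGH3 cells and 7.48 ± 1.5 CPM in differentiated controls (log2 fold change 3.48, adjusted p = 6.07e-16). Ccl2, a monocyte chemokine, averaged 579 ± 72 and 86.2 ± 2.6 CPM in these groups (adjusted p = 2.69e-13), and Ptgs2, the inducible prostaglandin synthase, 243 ± 7.1 and 89.8 ± 6.1 CPM (adjusted p = 9.67e-15). Cxcl1, a neutrophil chemokine, averaged 8.05 ± 1.0 CPM in differentiated BIGH3 cells and 0.060 ± 0.027 CPM, only 4 reads in all, in differentiated controls (adjusted p = 5.59e-12). Tnf and Il1b had 0 reads in differentiated BIGH3 libraries, and Il1b had 0 in every other group as well. Csf3 had 24 reads in differentiated BIGH3 libraries and 0 in every other group.

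Target genes of the TRIF arm moved in both directions. Of 12 tested, 6 rose and 2 fell (median log2 fold change 0.42), where 22.6% of all genes rose and 22.9% fell. Cxcl10 averaged 89.6 ± 1.5 CPM in differentiated BIGH3 cells and 28.4 ± 1.3 CPM in differentiated controls (log2 fold change 1.66, adjusted p = 2.58e-13). Irf1, an interferon regulatory factor, rose by 0.86 (adjusted p = 2.07e-11), Ifit1 by 0.60 (adjusted p = 1.08e-07) and Gbp2 by 0.47 (adjusted p = 4.98e-07), the last being interferon-inducible genes. Isg15, an interferon-inducible gene chosen after its values were seen, fell by 0.51 (adjusted p = 0.000166).

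Among the proteins between receptor and target, 5 of 21 signal transducers rose and 5 fell (median log2 fold change -0.04), close to the 22.6% and 22.9% of all genes. The 4 with the smallest p, all higher, are given here. Irak2, a kinase of the MyD88 complex, averaged 43.6 ± 1.8 CPM in differentiated BIGH3 cells and 24.1 ± 1.8 CPM in differentiated controls (log2 fold change 0.85, adjusted p = 3.31e-09). Ikbke, an interferon-pathway kinase, rose by 0.64 (adjusted p = 1.84e-08), Tirap, the adaptor that brings MyD88 to TLR2 and TLR4, by 0.58 (adjusted p = 3.36e-06), and Traf3, a ubiquitin ligase of the TRIF arm, by 0.51 (adjusted p = 9.22e-07). Of 14 genes tested from a list of negative regulators 8 rose and 2 fell (median 0.39). Tnfaip3, encoding the deubiquitinase A20, averaged 36.8 ± 0.66 CPM in differentiated BIGH3 cells and 8.86 ± 1.0 CPM in differentiated controls (log2 fold change 2.05, adjusted p = 8.5e-13). Its partner gene Tnip1 rose by 1.11 (adjusted p = 3.48e-13), Il1rl1, encoding the interleukin-33 receptor ST2, by 1.77 (adjusted p = 1.88e-10) and Tmed1 by 0.45 (adjusted p = 2.22e-05). Tmed1 counts here only through the list, and whether it restrains toll-like receptors was not tested.

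Of 10 genes for ligand capture and endogenous ligands 5 rose and 1 fell (median 0.18), where 22.6% of all genes rose and 22.9% fell. Lbp, whose product carries lipopolysaccharide to CD14, averaged 452 ± 25 CPM in differentiated BIGH3 cells and 296 ± 14 CPM in differentiated controls (log2 fold change 0.61, adjusted p = 8.29e-08). Undifferentiated cells had 56.5 ± 2.9 CPM of Lbp with BIGH3 and 52.4 ± 5.3 CPM in controls, so the control cells differed between states by 2.50 on the log2 scale (adjusted p = 5.04e-17). Cd36, a scavenger receptor that works with TLR2, averaged 47.8 ± 3.2 CPM in differentiated controls and 3.29 ± 0.64 CPM in undifferentiated controls (log2 fold change 3.87, adjusted p = 7.41e-17). The matrix proteoglycan gene Dcn rose by 1.60 with BIGH3 in differentiated cells (adjusted p = 2.39e-15) and the fibronectin gene Fn1 by 0.40 (adjusted p = 2.1e-05), and the tenascin gene Tnc fell by 0.88 (adjusted p = 2.57e-11). Of 5 genes for receptor folding and transport 2 fell and none rose (0). Cnpy3, a chaperone that toll-like receptors need, fell by 0.57 to 67.3 ± 3.3 CPM in differentiated BIGH3 cells, against 99.97 ± 7.7 CPM in differentiated controls (adjusted p = 1.58e-06). Rab11a was lower by 0.17 on the log2 scale (adjusted p = 0.0162) and was no longer called without differentiated BIGH3 3 (0.0644) and without differentiated control 2 (0.0517). Nor was it called with limma on TPM (adjusted p = 0.156). Without the 3 or 4 libraries with liver transcripts its log2 fold change was -0.10 and -0.09 (adjusted p = 0.189 and 0.296 by edgeR).

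In undifferentiated cells 0 of the 71 further pathway genes tested were called with BIGH3 by edgeR, 2 had an unadjusted p below 0.05, and DESeq2 and limma on TPM called 0. Nfkbiz, with a log2 fold change of 0.18 ± 0.10, and Cxcl10, with 0.18 ± 0.08, had an adjusted p of 1. The interaction was called for 36 of the 71, where 32.2% of all genes were called, among them Nfkbiz (3.30 ± 0.14), Tnfaip3 (2.08 ± 0.15), Dcn (1.57 ± 0.08), Cxcl10 (1.48 ± 0.11), Ptgs2 (1.42 ± 0.08), Tnip1 (1.13 ± 0.08), Irak2 (0.92 ± 0.11), Irf1 (0.83 ± 0.07), Ikbke (0.66 ± 0.08), Cnpy3 (-0.49 ± 0.10) and Tnc (-0.88 ± 0.08). Between control states, differentiated against undifferentiated, 29.1% of all genes rose and 28.6% fell. There 2 MyD88-arm targets rose and 4 fell of 8, with Nfkbiz at a log2 fold change of -1.10 ± 0.11 (adjusted p = 3.39e-08). Of the TRIF-arm targets 3 rose and 6 fell of 12, with Ifit1 at -0.75 ± 0.06 (adjusted p = 2.86e-09).

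**Figure D4:**
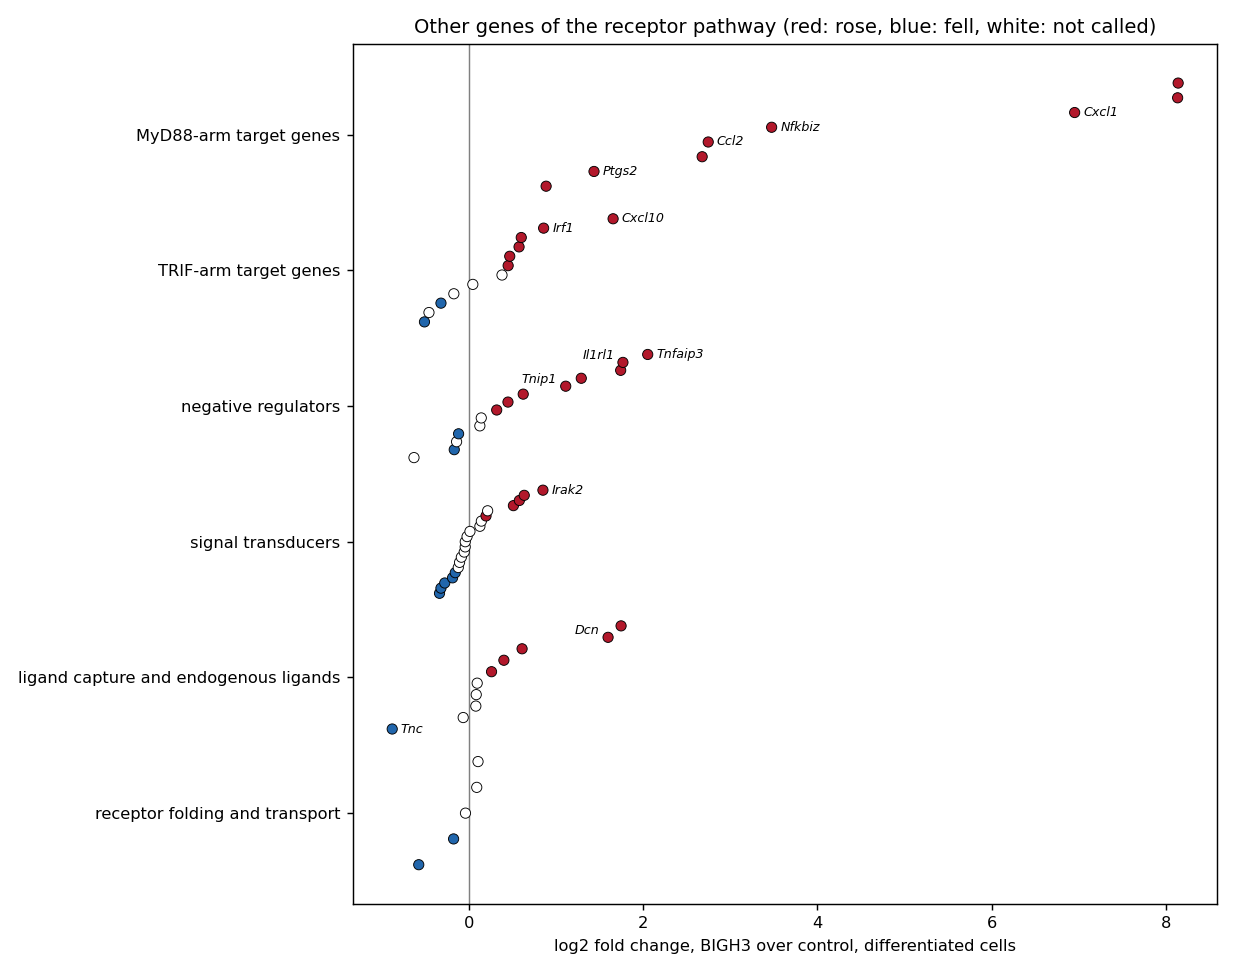
Log2 fold change of BIGH3 over control in differentiated cells for the tested genes of 6 further pathway lists, 1 dot per gene; red rose, blue fell and white was not called, and vertical spread within a list only separates dots. All 8 MyD88-arm targets lie to the right of 0, Ptgs2 at 1.44 and Nfkbiz at 3.48 among them, and the 21 signal transducers lie on both sides of 0.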

How the data were processed

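Sequencing of RNA from 12 libraries was analysed from the deposited Salmon-type files, 1 per library. Per the file headers the authors gave estimated counts (expected counts of reads, not whole) and TPM for each transcript, with transcript and effective lengths. FastQC, cutadapt, StringTie, Salmon and the build mm10 are listed in the submitters' processing notes, without versions. Transcripts were matched without version suffix to GENCODE M21 of GRCm38 (137063 of 147828, 92.7%), and unmatched ones, 1.28% to 3.67% of a library's reads, were not used here. For each gene, estimated reads were summed, then rounded, and TPM was summed.

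Genes passing filterByExpr (minimum count 10) entered an edgeR 4.0.16 fit with TMM scaling over all 12 libraries, 1 term per group, robust quasi-likelihood, 8 residual degrees of freedom. The fit was also run on counts simulated from its own means and spread, which cannot show that the model suits these libraries. Tests were two-sided. Standard errors were worked back from the F statistic. Alternatives used DESeq2 1.42.0 and limma 3.58.1 on log2(TPM + 0.5). Floors of 3 reads cover counting error only. Libraries of a group differed by more than sampling noise. Members, lists and the libraries left out were chosen with earlier results of these data known. All members were named. Of each further list the text names up to 4 genes with the smallest adjusted p for BIGH3 in differentiated cells and up to 2 elsewhere.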

Additional observations from a re-analysis of the deposited data

Results flagged for a closer look

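The response to BIGH3 differed between differentiated and undifferentiated cells, by the interaction test in edgeR, for 6 of 9 members tested. It also differed for 36 of the 71 further pathway genes tested, where 32.2% of all genes were called. The 11 of these genes given below were named for having the smallest p of their lists, so their number is not a result. The log2 fold change with BIGH3 was greater in differentiated cells by 1.84 for Tlr2, 1.81 for Cd14, 1.07 for Tlr4, 1.01 for Tlr1, 0.81 for Ly96 and 0.37 for Myd88. It was greater by 3.30 for Nfkbiz, 2.08 for Tnfaip3, 1.57 for Dcn, 1.48 for Cxcl10, 1.42 for Ptgs2, 1.13 for Tnip1, 0.92 for Irak2, 0.83 for Irf1 and 0.66 for Ikbke. For Tnc and Cnpy3 the difference was -0.88 and -0.49. The medium differed with the state, so the part of each cannot be told apart.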

How the results depend on the processing

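Each result was recomputed under 22 alternatives (21 for the interaction, which needs all groups), 20 planned and 2 chosen after seeing the data (without the 3 or 4 libraries with liver transcripts). The count of members called was 7 for BIGH3 in differentiated cells and 0 in undifferentiated cells under all of them, 4 to 6 for the interaction, 3 to 6 between control states and 7 to 8 between BIGH3 treated states. Of 981 recomputed member values 963 kept their direction and side of the threshold, where a change of sign in an uncalled value was not counted. Values turned round only with limma on TPM between control states: Tlr4 to -0.26 (adjusted p = 0.0126), Ticam1 to -0.24 (0.0073) and Ly96 to -0.019 (0.873), where the median of all genes was -0.28. Library totals moved that median to -0.16. Cd14 was called there with library totals (-0.36), on TPM (-0.51) and without differentiated control 1 (-0.37). When the 3 or 4 liver-bearing libraries were left out, the interaction was 0.89 and 0.84 for Tlr1 (adjusted p = 0.0655 and 0.0998) and 0.36 and 0.38 for Myd88 (0.0568 and 0.0611), no longer called but of similar size. The cause was not tested. Log2 fold changes with BIGH3 in differentiated cells ranged from 1.77 to 1.83 for Tlr2, 1.85 to 2.08 for Cd14, 1.13 to 1.23 for Tlr4, 0.94 to 1.04 for Ly96, 1.09 to 1.43 for Tlr1 and 0.31 to 0.39 for Myd88. Leaving out 1 library moved the further pathway genes called from 44 to between 41 and 46. Over all genes, the 3 calls in undifferentiated cells became 21 without a low-count filter, 8 with DESeq2 and 0 with the compared groups alone.

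Libraries with the same replicate number did not regularly deviate together. Correlations of deviations were -0.17 to 0.14 between differentiated groups, -0.22 to 0.03 between undifferentiated groups, -0.05 to 0.35 between control states (0.35 for number 2) and -0.11 to 0.05 between BIGH3 treated states, so the numbers were not taken as pairs. A replicate block left the members called at 7, 0, 6, 4 and 8 for BIGH3 in differentiated cells, BIGH3 in undifferentiated cells, the interaction, control states and BIGH3 treated states, and changed 0 member calls. Depth limits Tlr6 and Ticam2.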
